A study of Arabidopsis thaliana with 22 samples.

Results

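The genes described here are 35 Arabidopsis thaliana genes of jasmonate synthesis, perception, signalling and turnover, out of 33323 genes in the deposited table. They were taken from a list of gene identifiers, and all 35 were found. The list holds 12 synthesis genes, the conjugating enzyme JAR1 and the receptor COI1, 10 JAZ repressors, 3 MYC activators, the target genes VSP1 and VSP2, and 6 genes of hormone turnover or modification. RNA was sequenced from upper primary roots of 14-day seedlings in 22 libraries. Libraries labelled myb67 came from the mutant myb67-1 in the Col-0 background, with 6 libraries in experiment 1 and 5 in experiment 2, and libraries labelled WT came from Col-0, with the same numbers. Mutant and Col-0 seed shared plates of Murashige and Skoog medium, and no treatment was given. Each biological replicate pooled about 40 seedlings, from which 1.5 cm of root below the hypocotyl was taken after lateral roots were cut away. MYB67 encodes a MYB transcription factor, and according to the series' design text the mutant was profiled to find the genes it regulates. A single mutant allele was profiled, and the kind of lesion was not stated in the labels.

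Jasmonates are lipid-derived hormones of wound, defence and fertility responses. Lipoxygenases (LOX), allene oxide synthase (AOS) and allene oxide cyclases (AOC) act in the plastid to make the precursor OPDA, which the reductase OPR3, the ligase OPCL1 and the acyl-CoA oxidase ACX1 carry on to jasmonic acid in the peroxisome. JAR1 joins jasmonic acid to isoleucine, and the conjugate brings the F-box receptor COI1 together with JAZ proteins, whose breakdown releases MYC transcription factors. The hormone is inactivated by cytochrome P450 enzymes of the CYP94 family, by hydroxylases named JOX and by the sulfotransferase ST2A. MYC factors bind the G-box CACGTG and related letters such as AACGTG.

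The 250 bases upstream of the annotated start of VSP1, VSP2, AOC1 and AOC2 are shown because these closely related neighbours are compared below, and those of JAZ3 because they hold the most such motifs among the members. They were read from the RefSeq assembly TAIR10.1 of Col-0, 5' to 3' on the strand of the gene, with each copy of either motif, on whichever strand, in capitals.

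VSP1, chr5:8509202-8509451, minus strand: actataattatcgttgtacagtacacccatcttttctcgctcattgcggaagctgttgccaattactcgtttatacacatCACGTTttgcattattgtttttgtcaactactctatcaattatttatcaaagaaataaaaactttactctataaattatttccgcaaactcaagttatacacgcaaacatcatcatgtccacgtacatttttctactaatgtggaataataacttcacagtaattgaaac
VSP2, chr5:8502225-8502474, minus strand: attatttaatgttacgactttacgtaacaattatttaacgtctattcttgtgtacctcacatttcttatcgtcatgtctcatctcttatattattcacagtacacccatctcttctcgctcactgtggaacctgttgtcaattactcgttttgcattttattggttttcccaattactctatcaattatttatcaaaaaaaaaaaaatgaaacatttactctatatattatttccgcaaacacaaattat
AOC1, chr3:9403529-9403778, plus strand: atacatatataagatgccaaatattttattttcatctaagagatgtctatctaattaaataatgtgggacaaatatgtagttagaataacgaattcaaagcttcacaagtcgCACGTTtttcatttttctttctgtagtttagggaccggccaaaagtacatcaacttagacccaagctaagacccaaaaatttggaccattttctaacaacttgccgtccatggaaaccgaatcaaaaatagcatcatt
AOC2, chr3:9406419-9406668, plus strand: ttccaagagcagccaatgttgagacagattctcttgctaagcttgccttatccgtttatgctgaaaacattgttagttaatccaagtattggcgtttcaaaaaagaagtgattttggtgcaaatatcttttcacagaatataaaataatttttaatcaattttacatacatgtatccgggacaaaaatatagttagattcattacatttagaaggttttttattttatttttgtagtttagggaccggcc
JAZ3, chr3:6119457-6119706, plus strand: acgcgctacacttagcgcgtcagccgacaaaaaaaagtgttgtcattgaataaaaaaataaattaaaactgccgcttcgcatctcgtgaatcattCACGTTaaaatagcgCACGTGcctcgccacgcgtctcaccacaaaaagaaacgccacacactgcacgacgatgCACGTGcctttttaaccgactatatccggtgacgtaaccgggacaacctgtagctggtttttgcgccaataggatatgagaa

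VSP1 and AOC1 each held 1 AACGTG motif in this window, whereas their neighbours VSP2 and AOC2 held neither motif. JAZ3 held 2 CACGTG and 1 AACGTG motifs. CACGTG was present in 6 of the 35 members (17.1%), against 6.49% of 27443 windows of the same length. AACGTG, searched on both strands, was present in 9 of 35 (25.7%), against 7.54% of all windows. Either motif was present in 14 of 35 (40%), against 13.3% of all windows. These are matches of letters only, and no binding was measured. In AOC4, OPCL1, JAZ6, JAZ10 and JOX2 the window lay partly inside a neighbouring gene.

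Depth was 3705515 to 17727642 counts per library in experiment 1 and 23190477 to 32091009 in experiment 2, so low members were measured more precisely in experiment 2. WT replicate 1 of experiment 1 had the lowest depth. Its TMM scaling factor was 0.709, against 0.982 to 1.05 in the other libraries. It was the highest of its experiment for 16.1% of all genes and the lowest for 20.0%. Of the 11 synthesis genes tested, it was highest for 4 and lowest for 1. The transcript of MYB67 itself stood above WT in libraries labelled myb67, at 14.6 to 23.8 CPM (TMM-scaled counts, brought to the same library total) against 6.68 to 13.6 CPM in WT of experiment 2, and its log2 fold change over both experiments was 0.79 (edgeR adjusted p = 6.89e-05). Counts summed along a gene say nothing of a lesion in it, so directions below refer to libraries by their label. The root markers CASP1 and CASP2 of the endodermis, GPAT5, ASFT and CYP86A1 of suberised cells, and the xylem, phloem and cambium lists were all detected. GPAT5 and CYP86A1 rose in myb67 over both experiments (0.35 and 0.36, edgeR adjusted p = 0.00596 and 0.00727), and ASFT stood at 0.23 (adjusted p = 0.281). All 3 were above WT in all 5 same-numbered pairs of experiment 2, and CASP1 and CASP2 were below WT in 4 of 5. The part of these tissue markers in the jasmonate values was not tested. Summed CPM of 11 shoot photosynthesis genes was 246 to 372 in 10 of the 12 libraries of experiment 1, but 1029 in WT replicate 3 and 1418 in WT replicate 6. The leaf myrosinase gene TGG1 stood at 38.2 and 51.7 CPM in those WT libraries and at 0.393 CPM or less in the other libraries of experiment 1. In myb67 replicate 3 of experiment 1, 11 early wound and touch genes summed to 469 CPM, against 257 to 333 CPM in the other libraries of that experiment. Calls over both experiments, and the fold changes of LOX2, AOS, JAZ1 and VSP1, are also given without some of these 3 libraries. Values of ST2A and counts at an unadjusted p are given only with them. In bulk tissue, fewer cells of a type and less RNA per cell cannot be told apart.

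Of the 35 members, 31 passed the filter on low counts. AOC1, the repressor gene JAZ8, the methyltransferase gene JMT and the oxidase gene JOX3 did not, and had at most 16, 5, 11 and 17 counts in any library. Their mean CPM per kb of exon was at most 0.33 for AOC1, 0.308 for JAZ8, 0.104 for JMT and 0.197 for JOX3. Per kb of exon, VSP2, ACX1, JAR1, VSP1, JAZ12, MYC2 and MYC3 were among the 8 highest members in experiment 1 in both genotypes. In experiment 2, VSP2 led at 552 ± 123 CPM per kb in myb67 and 437 ± 151 in WT, followed by VSP1 at 101 ± 11.3 in myb67 and 140.2 ± 8.44 in WT (SD, n = 5 each). Among the lipoxygenases of the list, LOX6 stood far above the others, at 39.4 ± 4.04 CPM per kb in myb67 and 36.9 ± 3.13 in WT of experiment 2, against 1.32 or less for LOX2, LOX3 and LOX4 in those groups. LOX1, a lipoxygenase gene outside the list, stood higher still, at 569 to 920 CPM in experiment 2 against 113 to 145 CPM for LOX6. Their exons span 3049 and 3340 bases. LOX6 is known as the lipoxygenase of jasmonate formation in stressed roots. Within the cyclase family, AOC4 and AOC3 stood above AOC2, and AOC1 was lowest, in all 4 groups.

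**Figure D1:**
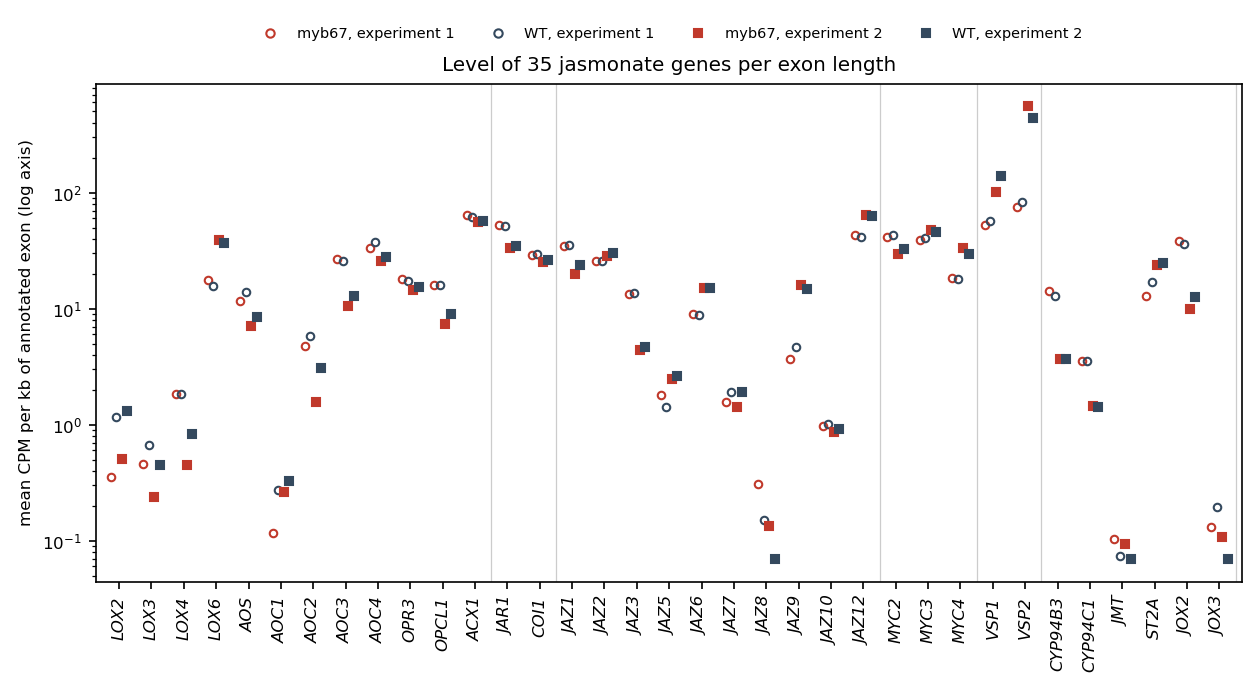
Mean CPM per kb of annotated exon (log axis) of the 35 members, grouped from left to right as synthesis, conjugation and receptor, JAZ repressors, MYC activators, targets and turnover. Each gene has 4 symbols, for myb67 and WT of experiment 1 (open circles) and of experiment 2 (filled squares). VSP2 lies at 437 or above in experiment 2, while AOC1, JAZ8, JMT and JOX3 lie below 0.4 throughout.

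The genotype comparison asked whether transcripts of the jasmonate pathway differed in roots labelled myb67. No member passed an adjusted p of 0.05 over both experiments (edgeR quasi-likelihood test, Benjamini-Hochberg adjustment over 21683 genes, experiment as a term), where 1.5% of all genes tested did and 0.687% were lower. At an unadjusted p under 0.05, 7 of 31 members were lower in myb67 and 0 were higher, against 3.68% and 3.62% of all genes. These 7 were the synthesis genes LOX2, LOX3, AOS, AOC2 and AOC4, the target VSP1 and the sulfotransferase gene ST2A. In experiment 1 the highest WT values of LOX3, AOC2 and AOC4 (3.81, 9.90 and 57.5 CPM) belonged to replicate 1, the library of lowest depth. Of the 31 members, 21 had a log2 fold change below 0, against 49.2% of all genes, and the median was -0.09. limma-voom and DESeq2 each called 2 members, AOS and VSP1, both lower in myb67, where they called 1.78% and 1.96% of all genes. In the authors' deposited table VSP1 was the only member with an adjusted p under 0.05 (log2 fold change -0.29, adjusted p = 0.0234), AOS followed at 0.0545, and 23 of the 35 members were below 0. Of its 33323 genes, 1.25% had an adjusted p under 0.05 and 48.9% were below 0.

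Within experiment 2, 1 member was called, VSP1, which fell (1.33% of all genes were called and 0.706% fell). At an unadjusted p under 0.05, 9 members were lower and 1, MYC4, was higher in myb67, against 4.94% and 3.31% of all genes, and 22 of 31 had a fold change below 0, against 48.3%. In experiment 1, 0 of 31 members were called (0.623% of all genes), and 4 were lower at an unadjusted p under 0.05 and 0 higher, against 4.65% and 4% of all genes. DESeq2 and limma-voom also called 0 members in experiment 1. In both experiments the log2 fold change was below 0 for 15 of 31 members (48.4%), against 22.1% of all genes. The difference of the genotype effect between the experiments was called for 0 of 31 members, against 0.0692% of all genes, and by DESeq2 and limma-voom for 0. At an unadjusted p under 0.05 the effect was lower in experiment 2 for 3 members, AOC3, VSP1 and JOX2, against 4.36% of all genes. Same-numbered libraries of myb67 and WT varied together in experiment 2, and were taken as paired on the basis of these same data. With those pairs in the model, 4 members fell in experiment 2, VSP1, AOC2, AOC3 and JOX2, where 4.84% of all genes were called and 3.34% fell.

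**Figure D2:**
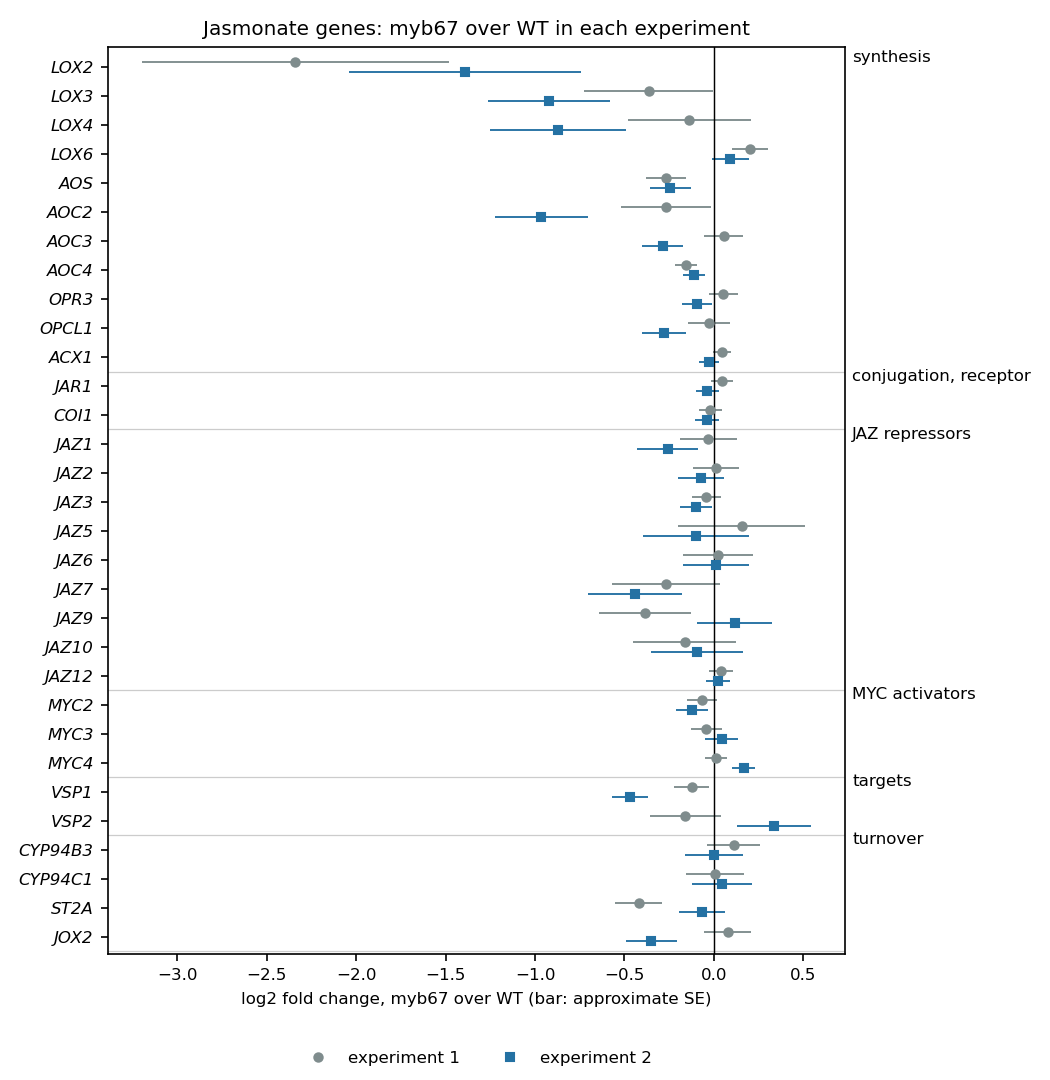
Log2 fold change of myb67 over WT for the 31 members tested, in experiment 1 (grey circles) and experiment 2 (blue squares), with approximate standard errors as bars. Most synthesis genes lie left of 0 in experiment 2 (10 of 11, against 48.3% of all genes), while VSP1 at -0.47 and VSP2 at 0.34 lie on opposite sides.

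Over both experiments, 5 of the 7 members lower in myb67 at an unadjusted p under 0.05 were synthesis genes. Of the 11 synthesis genes tested, 9 were below 0 (49.2% of all genes were), with a median of -0.15, and none was called. In experiment 2, 10 of 11 were below 0 (48.3% of all genes) and 7 were lower at an unadjusted p under 0.05 (4.94% of all genes). The median of these 11 was -0.28. None was called there by edgeR with all libraries unpaired, whereas DESeq2 and limma-voom called AOC2 (1.85% and 1.73% of all genes). LOX2 (AT3G45140), which encodes a plastid lipoxygenase of leaf wound responses, had 2.26, 1.46, 1.95, 1.21 and 1.32 CPM in myb67 of experiment 2, against 6.32, 4.40, 3.84, 2.47 and 4.42 CPM in WT. Every myb67 library was below every WT library. In experiment 1 it had a lowest, median and highest value of 0.0826, 0.338 and 5.45 CPM in myb67, against 0.158, 1.1 and 10.2 CPM in WT. The groups overlapped, and the high values belonged to myb67 replicate 3 and to WT replicates 3 and 6, which were the WT libraries with the high photosynthesis sums. The fold change of LOX2 over both experiments was -1.72 ± 0.51 on the log2 scale (SE, edgeR adjusted p = 0.130), and in experiment 2 it was -1.39 ± 0.65 (adjusted p = 0.575). With replicate numbers as a block in both experiments LOX2 was called, at -1.51 over both (adjusted p = 0.0123, 1.78% of all genes called) and -1.37 in experiment 2 (adjusted p = 0.0320, 4.52% called), although the numbers did not pair the libraries of experiment 1. With the block in experiment 2 alone it was not called (adjusted p = 0.110 over both and 0.334 in experiment 2). Without the 2 WT libraries of high photosynthesis sums the fold change over both was -1.04 (adjusted p = 0.486), and without myb67 replicate 3 it was -1.99 (adjusted p = 0.0456). The share of shoot-type RNA in this result was not tested beyond leaving out these libraries.

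Allene oxide synthase is encoded by AOS alone, the committed step towards jasmonates. AOS (AT5G42650) had 13.7, 14.9, 17, 13.2 and 13.3 CPM in myb67 of experiment 2, against 17, 19.3, 16.5, 15.9 and 16.5 CPM in WT. In experiment 1 its lowest, median and highest values were 17.7, 21.7 and 33.8 CPM in myb67 and 25.4, 27.5 and 31.1 CPM in WT. The groups overlapped in both experiments, in experiment 1 through myb67 replicates 2 and 3. Its fold change was -0.27 in experiment 1, -0.24 in experiment 2 and -0.26 ± 0.08 over both (edgeR adjusted p = 0.153), and without myb67 replicate 3 of experiment 1 it was -0.31 (adjusted p = 0.0133).

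Among the cyclases, AOC2 (AT3G25770) was lower in myb67 in each of the 5 pairs of experiment 2, with 2.33, 3.33, 1.95, 1.85 and 0.792 CPM in myb67 against 4.75, 5.82, 3.84, 2.91 and 2.57 CPM in WT for replicates 1 to 5. The groups overlapped, since myb67 replicate 2 stood above WT replicates 4 and 5. In experiment 1 the lowest, median and highest values were 4.54, 5.97 and 7.80 CPM in myb67 and 5.39, 6.89 and 9.90 CPM in WT, again overlapping. The log2 fold change in experiment 2 was -0.97 ± 0.26 (SE, edgeR adjusted p = 0.0781), and -0.98 with replicates paired (adjusted p = 7.84e-04). AOC2 also passed over both experiments with those pairs (-0.61, adjusted p = 0.0171), as did VSP1, where 2.21% of all genes did. AOC3 (AT3G25780) had 13.9, 16.8, 17.1, 23.3 and 16 CPM in myb67 of experiment 2, against 18.8, 18.4, 21.1, 25.8 and 22.3 CPM in WT. It was lower in all 5 pairs although the groups overlapped. Its fold change there was -0.29 ± 0.12 (adjusted p = 0.428), and -0.30 with the pairs (adjusted p = 0.0357). In experiment 1 AOC3 had a median of 43.0 CPM in myb67 and 43.4 CPM in WT, with a fold change of 0.05.

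AOC1, AOC2 and AOC3 lie in tandem on chromosome 3 and AOC4 on chromosome 1. Coding sequences of AOC1 and AOC2 were 90.3% identical, but no 50-base stretch was shared between them, and 0.14% of the 50-base stretches of AOC2 were found in AOC3. The treatment of reads matching several loci was not stated. AOC4 had an unadjusted p of 0.00397 with a fold change of -0.13 ± 0.04 (edgeR adjusted p = 0.172). LOX3 and LOX4, lipoxygenases of wounding and fertility, had fold changes of -0.66 ± 0.25 and -0.47 ± 0.26, at 5.61 CPM or less on average in every group. LOX6 and ACX1 were the synthesis genes above 0, at 0.15 ± 0.07 and 0.01 ± 0.04, and OPR3 and OPCL1 stood at -0.02 ± 0.06 and -0.15 ± 0.09.

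JAR1 and COI1, the conjugating enzyme and the receptor, had fold changes near 0 between genotypes. JAR1 (AT2G46370) had 85.5, 96.8, 87.2, 92.5 and 94.7 CPM in myb67 of experiment 2, against 80.5, 97.6, 88.9, 99.1 and 102 CPM in WT. COI1 (AT2G39940) had 61.0, 60.3, 66.0, 63.5 and 68.4 CPM in myb67, against 64.4, 65.1, 65.4, 65.0 and 68.3 CPM in WT. Both overlapped between the groups. In experiment 1 JAR1 had lowest, median and highest values of 131, 142 and 156 CPM in myb67 and 132, 136 and 159 CPM in WT. COI1 had 69.1, 73.0 and 78.3 CPM in myb67 there, and 56.4, 76.2 and 82.4 CPM in WT. The fold changes over both experiments were 0.01 ± 0.04 for JAR1 and -0.03 ± 0.05 for COI1, and the sign for JAR1 depended on the libraries included. The loci of COI1, MYC2, JAZ10 and JAZ12 each overlap another annotated gene (AT2G39930 for COI1, AT1G32630 for MYC2), and whether counting used strand was not stated, so reads from overlapping stretches cannot be told apart.

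JAZ genes encode the repressors and are themselves induced by the hormone. None of the 9 tested was called. Over both experiments 6 were below 0 (49.2% of all genes were), with a median of -0.07, and none had an unadjusted p under 0.05. JAZ1 (AT1G19180) had 31.3, 35.6, 36.8, 38.2 and 37.4 CPM in myb67 of experiment 2, against 38.2, 40.5, 47.4, 43.1 and 45.5 CPM in WT. The groups did not overlap, although the highest myb67 and the lowest WT library were equal to 3 digits, and the fold change of -0.26 ± 0.17 was not called (edgeR adjusted p = 0.852). Non-overlapping groups with myb67 lower were found for 3 members in experiment 2, LOX2, JAZ1 and VSP1, against 0.913% of all genes. In experiment 1 JAZ1 had lowest, median and highest values of 42.3, 53.6 and 115 CPM in myb67, against 55.1, 62.7 and 72.3 CPM in WT. The value of 115 CPM was that of myb67 replicate 3, whose early wound and touch genes were also high. Without that library the fold change over both experiments was -0.27 (adjusted p = 0.0356), against -0.14 ± 0.12 with it (adjusted p = 0.992).

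JAZ7 (AT2G34600), a small repressor gene of stress responses, was low throughout. It had 2.00, 1.02, 0.846, 0.817 and 1.13 CPM in myb67 of experiment 2, against 1.90, 1.32, 1.78, 1.2 and 1.69 CPM in WT. In experiment 1 its lowest, median and highest values were 0.195, 1.19 and 2.12 CPM in myb67 and 1.39, 1.55 and 1.74 CPM in WT. Groups overlapped in both experiments, and the fold change was -0.37 ± 0.19 (edgeR adjusted p = 0.776). The other tested repressors, JAZ2, JAZ3, JAZ5, JAZ6, JAZ9, JAZ10 and JAZ12, had fold changes of -0.13 to 0.03 over both experiments.

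The MYC activators showed no call. MYC2 (AT1G32640), the master regulator of the branch, had 105, 102, 96.6, 88.7 and 96.2 CPM in myb67 of experiment 2, against 109, 114, 104, 102 and 105 CPM in WT, lower in all 5 pairs with overlap between groups. MYC4 (AT4G17880), its close relative, had 87.1, 75.9, 80.5, 74.0 and 76.6 CPM in myb67, against 75.1, 71.4, 72.7, 65.0 and 66.9 CPM in WT, higher in all 5 pairs with overlap. The 2 activators thus stood on opposite sides in the same libraries. In experiment 1 MYC2 had a lowest, median and highest value of 113, 128 and 186 CPM in myb67, and 131, 141 and 153 CPM in WT. MYC4 had 38.3, 43.8 and 46.1 CPM in myb67 there, and 39.6, 42.6 and 48.2 CPM in WT. The fold changes over both experiments were -0.09 ± 0.06 for MYC2 (edgeR adjusted p = 0.901) and 0.09 ± 0.05 for MYC4 (adjusted p = 0.749), and MYC3 stood at -0.0031 ± 0.06.

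VSP1 and VSP2 encode vegetative storage proteins with acid phosphatase similarity and are textbook reporters of MYC-dependent jasmonate output. VSP1 (AT5G24780) lies at chr5:8507590-8509201 and VSP2 (AT5G24770) at chr5:8500468-8502224, both on the minus strand. They are 5365 bases apart, and their coding sequences were 90.4% identical with 0.654% of the 50-base stretches of VSP1 found in VSP2. VSP1 had 125, 160.3, 132, 122 and 137 CPM in myb67 of experiment 2, against 199, 191, 197, 178 and 173 CPM in WT. Every myb67 library was below every WT library. VSP1 fell by 0.47 ± 0.10 on the log2 scale (SE, edgeR adjusted p = 0.0148). Leaving out each library in turn kept the adjusted p of VSP1 between 0.00245 and 0.04999 in experiment 2. In experiment 1 its lowest, median and highest values were 56.0, 67.1 and 94.6 CPM in myb67, against 64.7, 74.3 and 85.1 CPM in WT. The groups overlapped, the highest value again being myb67 replicate 3, and the fold change was -0.12 ± 0.10 (adjusted p = 0.80). The difference of the VSP1 effect between experiments was -0.35 ± 0.14 (adjusted p = 0.489).

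Over both experiments VSP1 stood at -0.29 ± 0.08 (edgeR adjusted p = 0.0647), and at -0.30 with experiment 2 paired by replicate (adjusted p = 0.0451). Without myb67 replicate 3 of experiment 1 it was -0.35 (adjusted p = 0.00244). Without the 2 WT libraries of high photosynthesis sums it was -0.32 (adjusted p = 0.0452).

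VSP2 was not called, and its fold change in experiment 2 was above 0. It had 1112, 826, 908, 695 and 644 CPM in myb67 of experiment 2, against 1007, 659.7, 722, 519 and 403 CPM in WT for replicates 1 to 5. Replicate 1 was highest and replicate 5 lowest in each genotype, the groups overlapped, and myb67 was above WT in all 5 pairs. The fold change was 0.34 ± 0.21 (edgeR adjusted p = 0.816), and 0.38 with the pairs (adjusted p = 0.178). In experiment 1 VSP2 had lowest, median and highest values of 75.2, 109 and 164 CPM in myb67, and 99.3, 126 and 161 CPM in WT, overlapping, with a fold change of -0.16 ± 0.20. The summed photosynthesis genes followed a similar order in experiment 2, with 2384, 1771, 2177, 1809.9 and 1659 CPM in myb67 and 2067, 1654, 1854, 1367 and 1332 CPM in WT, above WT in all 5 pairs. Of the 11 genes, 9 were above WT in all 5 pairs, while LHCB1.1 and RBCS2B were below WT in 4 of 5, as was TGG1. The ratio of VSP1 to VSP2 CPM in the same libraries was 0.113, 0.194, 0.146, 0.176 and 0.213 in myb67, and 0.198, 0.289, 0.272, 0.344 and 0.430 in WT. That it was lower in all 5 pairs follows from VSP1 being lower and VSP2 higher in each, and adds no separate result. In experiment 1 that ratio was 0.520 to 0.745 in myb67 and 0.453 to 0.759 in WT. The part of shoot-type RNA in the VSP2 values was not tested.

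**Figure D3:**
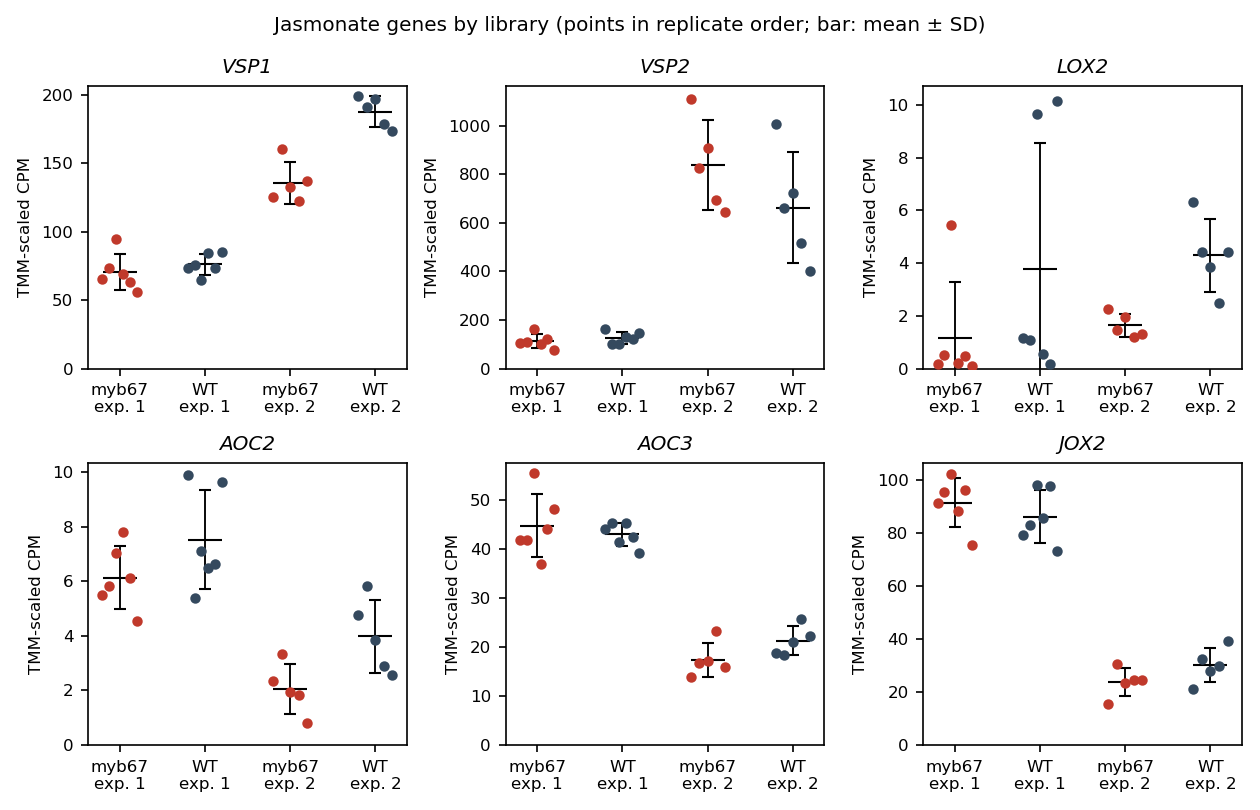
CPM per library (vertical axes from 0, each gene with its own scale) for VSP1, VSP2, LOX2, AOC2, AOC3 and JOX2 in myb67 and WT of experiment 1 (6 libraries each) and experiment 2 (5 each), with the mean and SD as black bars. In experiment 2, VSP1 and LOX2 separate by genotype, VSP2 spans 644 to 1112 in myb67 and 403 to 1007 in WT, and the high LOX2 values of experiment 1 belong to 3 libraries.

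None of the turnover genes was called without the replicate pairs. Of the 4 tested, 2 were below 0 and 2 above over both experiments, where 49.2% of all genes were below 0. ST2A (AT5G07010), which sulfates hydroxylated jasmonate, had lowest, median and highest values of 17.8, 22.5 and 27.0 CPM in myb67 of experiment 1, against 24.4, 26.7 and 42.9 CPM in WT. The groups overlapped, and the value of 42.9 CPM was that of WT replicate 3, a library with a high photosynthesis sum. The fold change of -0.42 ± 0.13 was not called (edgeR adjusted p = 0.216). In experiment 2 it had 46.7, 42.9, 39.0, 40.0 and 41.1 CPM in myb67, against 45.0, 52.6, 44.9, 39.0 and 38.1 CPM in WT, with a fold change of -0.07 ± 0.13. JOX2 (AT5G05600), which hydroxylates jasmonic acid, had 15.5, 30.4, 23.3, 24.5 and 24.3 CPM in myb67 of experiment 2, against 21.2, 32.4, 28.0, 29.8 and 39.1 CPM in WT. It was lower in all 5 pairs with overlapping groups, and its fold change was -0.35 ± 0.14 (adjusted p = 0.449), or -0.35 with the pairs (adjusted p = 0.0239). In experiment 1 JOX2 had lowest, median and highest values of 75.5, 93.2 and 102 CPM in myb67 and 73.1, 84.1 and 98.0 CPM in WT, with a fold change of 0.08. CYP94B3 and CYP94C1, which oxidise the isoleucine conjugate, stood at 0.06 ± 0.11 and 0.03 ± 0.11 over both experiments.

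The 7 members LOX2, AOC2, AOC3, JAZ1, MYC2, VSP1 and JOX2, were lower in myb67 in all 5 pairs of experiment 2, against 9.09% of all genes, and MYC4 and VSP2 were higher in all 5, against 8.66%. The summed early wound and touch genes of experiment 2 were 301, 279, 379, 410.3 and 295 CPM in myb67, against 347, 338, 459, 442 and 368 CPM in WT, also lower in all 5 pairs. Of those 11 genes, WRKY33, ZAT10, TCH3 and ERF6 were lower in all 5 pairs, while ZAT12 was higher in all 5 with groups that did not overlap (0.37, edgeR adjusted p = 0.398). Their part in the lower jasmonate genes was not tested.

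In experiment 1 the libraries labelled myb67 lay farther apart than those labelled WT. Relative to the WT mean of the experiment, the median deviation over the 31 members was 0.32 on the log2 scale in myb67 replicate 3 and -0.26 in replicate 6, while the WT libraries lay between -0.08 and 0.05. Replicate 3 of myb67 was the highest of the 12 libraries for 18 of the 31 members, against 11.7% of all genes, and for 7 of the 11 early wound and touch genes. Replicate 4 of myb67 was lowest for 10 of the 31 members and replicate 6 for 9, against 13.2% and 11.7% of all genes. Replicates 3 and 4 had 4488078.5 and 5212571.5 counts, among the 3 lowest totals. Without replicate 3, 4 members fell over both experiments, LOX2, AOS, JAZ1 and VSP1, where no member was called with it, and 1.49% of all genes were called and 0.692% fell in that fit. In experiment 2 the median deviation was -0.24 to -0.07 in myb67 and -0.07 to 0.05 in WT.

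**Figure D4:**
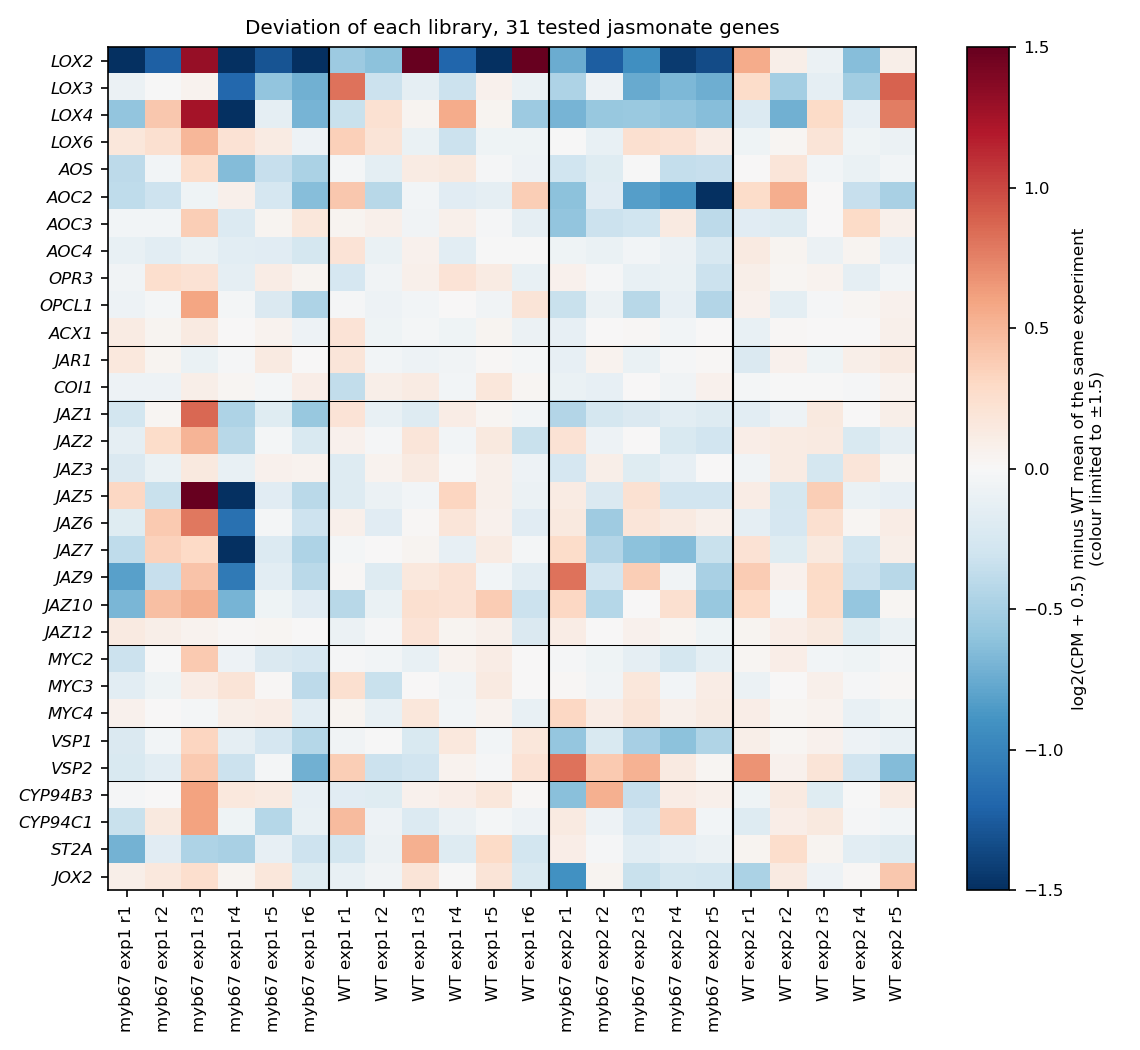
Deviation of each library from the WT mean of its own experiment, as log2(CPM + 0.5), for the 31 members tested (rows, by role) in the 22 libraries (columns: myb67 then WT of experiment 1, then myb67 and WT of experiment 2). Red is above and blue below the WT mean. Replicate 3 of myb67 in experiment 1 is red across most rows, and replicates 4 and 6 are blue across many.

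The experiments themselves differed far more than the genotypes. In WT, 24 of 31 members differed between experiment 2 and experiment 1 (9 higher, 15 lower), where 70.8% of all genes did (37.2% higher, 33.5% lower). In myb67, 26 differed (9 higher, 17 lower), where 73.9% of all genes did (38.7% higher, 35.2% lower). The totals are near those of all genes, while more members were lower than higher in each genotype. In all, 23 members were called in both genotypes, each with the same sign. The experiments also differ in depth and in the step of the deposited values, so growth and technique cannot be told apart.

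Both targets rose in experiment 2. VSP2 was higher by 2.90 ± 0.21 in myb67 and by 2.40 ± 0.21 in WT on the log2 scale, and VSP1 by 0.96 ± 0.10 in myb67 and 1.30 ± 0.10 in WT. JAZ9 rose by 2.15 ± 0.24 in myb67 and 1.64 ± 0.23 in WT, and LOX6 by 1.16 ± 0.10 in myb67 and 1.26 ± 0.10 in WT (edgeR adjusted p of 9.71e-07 or less in each). Of the 4 turnover genes, 3 fell and ST2A rose in both genotypes. CYP94B3 had log2 fold changes of -1.92 ± 0.16 in myb67 and -1.81 ± 0.16 in WT, JOX2 of -1.95 ± 0.14 in myb67 and -1.52 ± 0.14 in WT, and CYP94C1 of -1.22 ± 0.17 in myb67 and -1.26 ± 0.16 in WT. Of 11 synthesis genes, 9 fell and 1 rose in myb67, and 7 fell and 1 rose in WT. AOC3 fell by 1.36 ± 0.11 in myb67 and by 1.01 ± 0.11 in WT, and LOX4 fell by 1.95 ± 0.39 in myb67 and 1.22 ± 0.35 in WT. The repressors divided, and 2 of the 9 tested fell in each genotype. JAZ3 stood at -1.61 ± 0.09 in myb67 and -1.55 ± 0.09 in WT. The mean of JAZ1 went from 62.3 to 35.9 CPM in myb67 and from 63.1 to 42.9 CPM in WT. JAZ6, JAZ9 and JAZ12 rose in both genotypes and JAZ5 rose in WT (0.87 ± 0.32). The activators divided as well, with MYC2 at -0.46 ± 0.09 in myb67 and -0.41 ± 0.09 in WT, and MYC4 at 0.87 ± 0.06 in myb67 and 0.72 ± 0.06 in WT. Tissue markers moved with the experiment, CASP1 and CASP2 summing to 4.00 to 34.3 CPM in experiment 2 against 158 to 211 CPM in experiment 1, and the photosynthesis genes to 1332 to 2384 CPM against 246 to 1418 CPM. Their part in the jasmonate values was not tested.

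**Figure D5:**
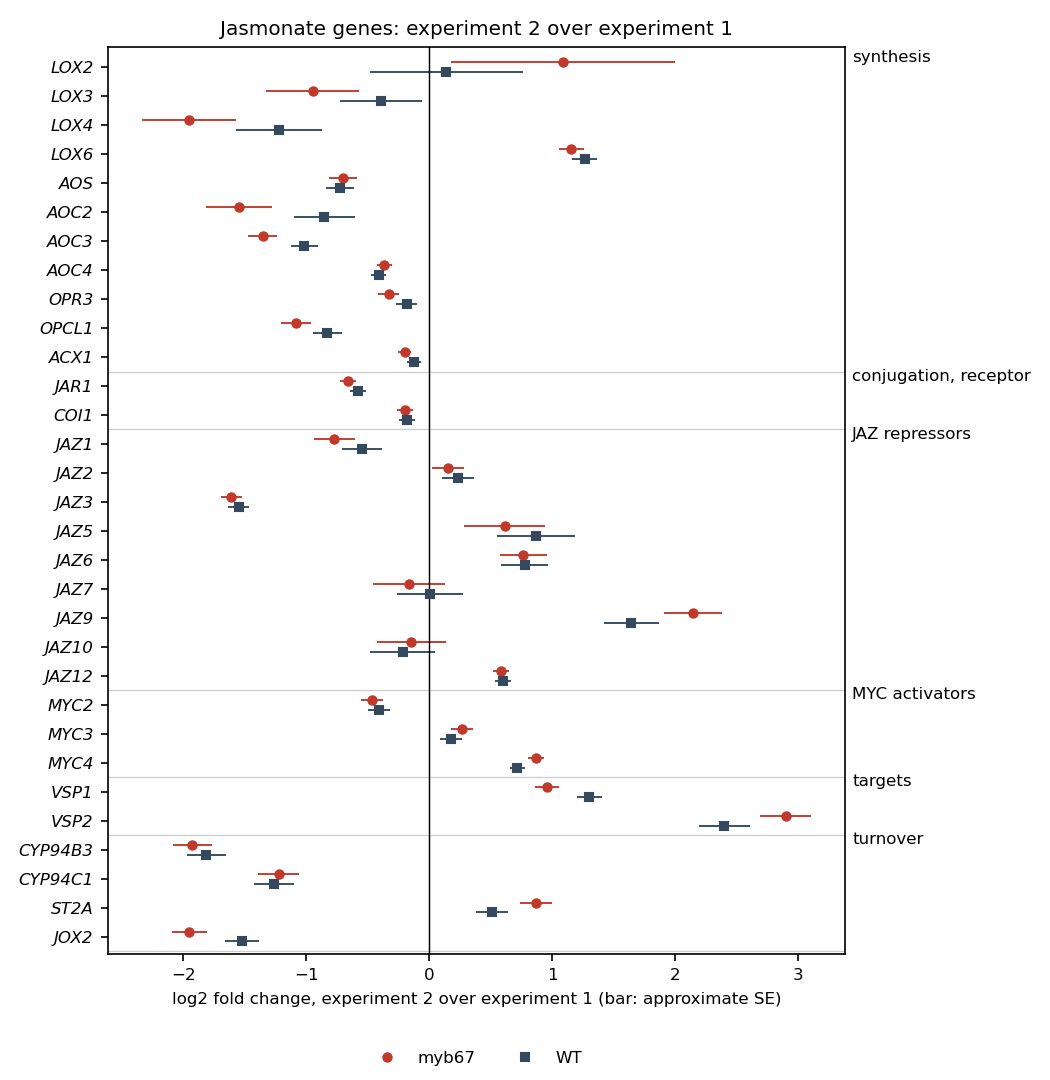
Log2 fold change of experiment 2 over experiment 1 for the 31 members tested, in myb67 (red circles) and WT (dark squares), with approximate standard errors as bars. VSP2 lies farthest right, at 2.90 in myb67 and 2.40 in WT, and CYP94B3, JAZ3 and JOX2 are the 3 farthest left in WT.

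Of 40 other genes of the pathway or related to it, such as the lipoxygenase gene LOX1, 32 passed the filter. None was called over both experiments, where 1.5% of all genes were. At an unadjusted p under 0.05, 1 was lower and 1 higher (3.68% and 3.62% of all genes), and DESeq2 and limma-voom also called 0. Of the 32, 16 were below 0 (49.2% of all genes), with a median of 0.01. The smallest p-values belonged to ILL6, an amidohydrolase gene that cleaves jasmonate conjugates, to the peroxisomal transporter gene PXA1 and to the repressor gene JAZ4. Their fold changes were -0.25 ± 0.08, 0.07 ± 0.03 and -0.21 ± 0.11 (edgeR adjusted p = 0.181, 0.631 and 0.776). With experiment 2 paired by replicate, ILL6 (-0.42, adjusted p = 0.0120) and JAZ4 (-0.49, adjusted p = 0.0215) fell and JASSY, an exporter gene of the plastid envelope, rose (0.21, adjusted p = 0.0438), where 4.84% of all genes were called and 3.34% fell. ILL6 averaged 4.90 ± 0.987 CPM in myb67 and 6.49 ± 0.358 CPM in WT of experiment 2 (SD, n = 5 each). The defence targets PDF1.2A and THI2.1 and the target CORI3 were below the filter, and JR1, the target that passed, had a fold change of -0.03. That value joins opposite signs, -0.18 in experiment 1 and 0.15 in experiment 2. In experiment 2 JR1, like VSP2, was above WT in all 5 pairs, and its groups overlapped in both experiments.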

How the data were processed

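Messenger RNA was measured in 22 libraries, and the members and gene lists were chosen with earlier results of these data known. The authors deposited a table of counts per gene. The deposited values are expected counts in steps of 0.5 in experiment 1 and whole counts in experiment 2. Per the submitters' processing notes the build was TAIR10 and the tools, whose roles are not stated, were STAR 2.7.10a, HOMER, Trimmomatic 0.39, FastQC and DESeq2 1.40.1. Strand and the treatment of reads matching several loci are not stated. The authors also deposited log2 fold changes with standard errors, adjusted p-values and a mean signal per gene, per the file headers, and these were not used in any test.

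Expected counts were rounded to whole numbers. Genes were kept by filterByExpr of edgeR 4.0.16 (R 4.3.3) across the 4 groups, and 21683 of 33323 genes remained. Libraries were scaled by TMM and tested with edgeR's quasi-likelihood test, with experiment as a term or with 1 mean per group, and Benjamini-Hochberg adjustment over all genes tested (threshold 0.05). Printed standard errors are the fold change divided by the root of the F statistic. CPM values are TMM-scaled, and comparisons between genes are per kb of RefSeq exon. The test was also run on simulated counts drawn independently for each library. They held no variation shared between replicates and no outlying library, so that run cannot speak to the effect of either here. The alternatives were limma-voom (limma 3.58.1), DESeq2 1.42.0, other scaling and filters, unrounded values, replicate blocks and libraries left out. Alternatives for the members' fold changes within experiment 2, and the comparison of experiments in myb67, were added after seeing the data. Replicates are separate pools of seedlings, and no libraries agreed within sampling noise.

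Whether replicate numbers pair the libraries was checked by the correlation of deviations from the group means. Same-numbered libraries of experiment 2 correlated in all 5 pairs (0.285 to 0.671), so they were taken as paired from the data, and those of experiment 1 did not (-0.158 to 0.0430). Correlations between libraries of different numbers were not set beside these, so the check does not show that the numbers are the best match. Full values are given for members called in any genotype test with or without the replicate block and, within each role, for the 2 members of smallest unadjusted p over both experiments.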

Additional observations from a re-analysis of the deposited data

Results flagged for a closer look

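In 5 of 56 groups of libraries examined, 1 library stood apart from the others of its group by Dixon's criterion, which chance alone meets in about 1 of 20 groups. LOX2 at 5.45 CPM and JAZ1 at 115 CPM were the highest of 6 in myb67 of experiment 1, both in replicate 3, the library with the high early wound and touch genes. JAR1 at 159 CPM was the highest of 6 in WT of experiment 1 (replicate 1), which is the library of lowest depth. COI1 at 68.3 CPM was the highest of 5 in WT of experiment 2 (replicate 5). JAZ7 at 2.00 CPM was the highest of 5 in myb67 of experiment 2 (replicate 1).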

How the results depend on the processing

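Over both experiments 0 members were called (1.5% of all genes). limma-voom called 2 (1.78% of all genes) and DESeq2 2 (1.96%), AOS and VSP1 in each. The replicate block in both experiments gave 1 (LOX2, 1.78%) and in experiment 2 alone 2 (AOC2 and VSP1, 2.21%). Leaving out the 2 WT libraries of high photosynthesis sums gave 1 (VSP1, 1.35%), and leaving out the 3 libraries of lowest depth 2 (AOS and VSP1, 1.31%). Leaving out each library in turn gave 0 to 4 (1.32% to 1.51%), with 4 without myb67 replicate 3 of experiment 1 and VSP1 alone without WT replicate 3 of experiment 1. In experiment 2, 1 member was called (1.33%), against 2 by limma-voom (1.73%), 2 by DESeq2 (1.85%), VSP1 and AOC2 in each, 4 with either replicate block (4.52% for both experiments, 4.84% for experiment 2 alone), and 1 to 2 with a library left out (0.88% to 2.34%). AOC2 joined VSP1 without myb67 replicate 2 or WT replicate 5. The 4 were AOC2, VSP1 and JOX2 with LOX2 (block in both experiments) or with AOC3 (experiment 2 alone). The difference between experiments was called for 1 member, JOX2, with the block in both experiments (2.38%), and for 0 otherwise. The log2 fold change of JAR1 changed sign without the high photosynthesis libraries (-0.0113) and ranged from -0.0137 to 0.0224 with a library left out. Over all genes, the calls of experiment 2 numbered 288, against 1050 with the pairs of experiment 2 in the model. The cause of these changes was not tested. The replicate block changed no other member's call. RLE scaling, both other filters and unrounded values changed no genotype call among the members. Low counts in both experiments limit the 4 members not tested. In experiment 2 AOC1 had 6 to 16 counts, JAZ8 0 to 5, JMT 0 to 11 and JOX3 1 to 14. Depth in experiment 1 limits LOX2, LOX3, JAZ5 and JAZ7, which had 3 counts or fewer in at least 1 library.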

Other observations

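Other genes of the pathway or related to it also differed between the experiments, and those named here were chosen after their values were seen. JR1, a jasmonate-responsive lectin gene, was higher in experiment 2 by 1.36 ± 0.09 in myb67 and 1.03 ± 0.09 in WT on the log2 scale. LOX1, a lipoxygenase gene outside jasmonate synthesis, was higher by 1.55 ± 0.10 in myb67 and 1.21 ± 0.10 in WT, and ORA59, a regulator shared by ethylene and jasmonate defence, by 1.35 ± 0.22 in myb67 and 1.33 ± 0.21 in WT. ILL6 fell by 1.32 ± 0.11 in myb67 and by 1.01 ± 0.10 in WT, and JAZ4 fell by 1.43 ± 0.15 in myb67 and by 0.91 ± 0.14 in WT. All of these passed an adjusted p of 0.05 (edgeR), as did 73.9% of all genes in myb67 and 70.8% in WT.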
